A study of Mus musculus with 22 samples.

Results

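The BMP and TGF-beta signalling genes described here are 10 genes picked by name: the ligands Bmp2, Bmp4, Bmp7 and Tgfb1, the inhibitors Smad6, Smad7 and Pmepa1, and the target genes Id1, Id2 and Id3. All 10 were found in the table, which holds 52636 genes. They were followed in 22 RNA-seq libraries of organoids grown from the duodenum of adult wild type mice (outbred CD1, 2 months old) and exposed to cold atmospheric plasma (CAP), an ionized helium gas that leaves reactive species in the culture medium. The comparisons ask how the way and the timing of CAP application change gene expression in a healthy intestinal epithelium.

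There were 4 untreated libraries (lines 1 to 4, named CD1, WT2, 1 and 2 in the sample titles, each an organoid line of its own mouse) and 6 treated groups of 3 libraries (lines 1, 2 and 4 each time). In direct CAP the plume was applied to the organoids at day 1 and the medium was changed after 30 min or after 24 h. In indirect CAP the medium of a treated organoid culture was moved onto untreated organoids. In plasma-activated medium (PAM), they received medium treated without organoids. Indirect CAP and PAM were given from day 1 or from day 2. By the methods of the study each of these lasted 24 h, whereas the labels give 30 min for both day 1 groups, and the names of the methods are used below. By the figure legends of the study the endpoint was day 3. The day 1 groups had fresh medium from the end of their exposure to that day. The day 2 groups were exposed up to that day, to medium that had been treated at day 1. Start day, time in fresh medium and age of the treated medium therefore cannot be told apart between them. All cultures, untreated ones included, were grown with EGF, R-spondin 1 and Noggin, a protein that binds BMPs and blocks them. The samples are labelled as stem cells of the epithelium, but genes of enterocytes, goblet cells and Paneth cells were high beside stem cell genes in all 4 untreated libraries, with the 8 enterocyte markers summing to 112417 to 129911, so these are mixed epithelial cultures. By the labels lines 1 and 2 were at passage 12 and 14, and lines 3 and 4 at passage 4, for which the methods give passage 2. The methods list the lines at passage 12 and 14 as male and those at passage 2 as female. Each line is 1 mouse, so passage, sex and mouse cannot be told apart.

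Values are read counts per gene that the authors scaled to 20 M per library and are not divided by gene length, so levels are compared between genes only per kb of exon. The libraries hold an estimated 19.4 to 28.7 M reads. Markers of fibroblasts, the main source of BMP ligands and BMP antagonists in the gut wall, were almost absent: the 7 markers summed to between 13 and 39 in untreated libraries and between 18 and 45 in treated ones, with Lum at 0 in all 22 libraries and Dcn never above 1. The 6 immune markers summed to 35 to 157 and the 4 endothelial ones to 12 to 111 over all libraries. Stem cell markers (Lgr5, Olfm4, Smoc2, Ascl2 and Axin2, 5 of 5 found) summed to 32557 to 38876 in untreated libraries, 20274 to 32015 after direct CAP for 30 min, 5313 to 10861 after 24 h, 5936 to 15040 with indirect CAP from day 1, 1306 to 2640 with PAM from day 1, 2703 to 3953 with indirect CAP from day 2 and 757 to 2747 with PAM from day 2. Other markers moved in that last group too: from untreated to PAM from day 2, the 6 proliferation markers went from 22699 to 29577 down to 4446 to 8683, the 5 goblet markers from 73232 to 129624 down to 17395 to 45957, the 5 Paneth markers from 29289 to 40556 down to 4797 to 21111, and the 8 enterocyte markers up to 150996 to 198536. In bulk RNA, fewer cells of a type and less RNA per cell cannot be told apart, and the part of these shifts in any result below was not tested.

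BMPs and TGF-beta are secreted ligands that bring together type I and type II receptor kinases. BMP receptors phosphorylate SMAD1, SMAD5 and SMAD8, TGF-beta and activin receptors phosphorylate SMAD2 and SMAD3, and both kinds of SMAD enter the nucleus with SMAD4. In the small intestine BMP signalling is low in crypts, where antagonists protect the stem cells, and high on villi, where it goes with differentiation. Smad6 and Smad7 encode inhibitory SMADs that act back on the receptors, and Pmepa1 encodes a membrane protein that binds SMAD2 and SMAD3 and keeps them from the receptor. ID proteins hold basic helix-loop-helix factors away from DNA.

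The promoter stretches below show, for the target genes and inhibitors, letters that SMAD proteins are known to bind. The RefSeq promoter table for GRCm38.p6 (250 bases before to 50 after each gene's start) held 5 of the 10 genes: Bmp4, Tgfb1, Id2, Id3 and Smad6. It was searched on both strands for CAGAC (or its reverse complement GTCTG), a SMAD binding element, for GGCGCC, a GC-rich SMAD motif, and for GTCTAGAC, a palindrome of the same element that overlaps none of the other 2. Bmp4 and Tgfb1 held none of the 3. Each stretch is on the strand of the gene with the match in capitals. GENCODE places the Id3 start at 136143497 and the Id2 start at 25097140, upstream of the RefSeq starts used here, so the Id3 and Id2 stretches lie inside the GENCODE bounds of these genes.
Id3, first site, chr4:136143644-136143670, plus strand: gtcctcggcgtCAGACcagcctaagga
Id3, second site, chr4:136143743-136143769, plus strand: gacccttggcgGTCTGttttgaataag
Id2, chr12:25096307-25096334, minus strand: caggccccctgGGCGCCcagcgcacact
Smad6, chr9:64022045-64022074, minus strand: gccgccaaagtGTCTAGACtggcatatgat
Among 32851 promoters of the same length, 49.6% held CAGAC or its complement, 11.9% held GGCGCC and 0.213% held GTCTAGAC. A match describes the sequence and is not a bound site.

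In untreated organoids Id1 had the highest level per kb, 216 ± 44.3 (SD, n = 4). Bmp7 (98.5 ± 29.1), Id2 (84.5 ± 23.7), Bmp2 (61.8 ± 6.35), Id3 (56.1 ± 19.4), Smad7 (44.9 ± 11.2) and Pmepa1 (38.6 ± 7.21) followed, and the mean ± SD ranges of neighbours in this order overlapped. Tgfb1 was lower at 14.5 ± 5.37 per kb, Smad6 stood at 3.35 ± 2.00 and Bmp4 at 0.667 ± 0.574. Bmp7 and Bmp2 were therefore the main BMP ligands of the list in these cultures, and Bmp4, which is made mostly by the mesenchyme under the epithelium, was close to absent.

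A gene was called changed when its adjusted p (Benjamini-Hochberg) was under 0.01 and it moved by at least 1 on the log2 scale, up or down, in limma's trended moderated test over all genes tested. The 6 treated groups were compared with the same 4 untreated libraries, so these comparisons are not independent of each other.

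Pmepa1 (chr2:173224458-173276533, minus strand, GRCm38) and Smad7 (18:75367529-75395935, plus strand) were the members that stood highest against untreated in most exposures. Pmepa1 was 167, 154, 231 and 206 in untreated lines 1 to 4. It was 227, 255 and 364 after direct CAP for 30 min and 449, 404 and 514 after 24 h, in lines 1, 2 and 4. With indirect CAP it was 338, 272 and 472 from day 1 and 395, 374 and 452 from day 2, and with PAM it was 789, 563 and 619 from day 1 and 354, 393 and 600 from day 2. Every library of the 5 groups with a 24 h exposure lay above every untreated library, and the 30 min group overlapped the untreated one by its line 1. Pmepa1 rose by a log2 fold change of 1.79 (SE 0.18, limma adjusted p = 0.000263) with PAM from day 1, which was its highest group, 1.27 (SE 0.17, adjusted p = 0.00435) with direct CAP for 24 h, 1.22 (SE 0.22, adjusted p = 0.00327) with PAM from day 2 and 1.11 (SE 0.16, adjusted p = 0.00103) with indirect CAP from day 2. With indirect CAP from day 1 its log2 fold change was 0.91 and the limma adjusted p 0.0234, and with the organoid line as a block it was 1.01 with an adjusted p of 0.00998. Blocked values against untreated, here and for other genes, rest on line labels that are in doubt for untreated lines 1 and 2, which correlated better with treated libraries of each other's line than with those of their own. After 30 min it was 0.56 (limma adjusted p = 0.148).

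**Figure D1:**
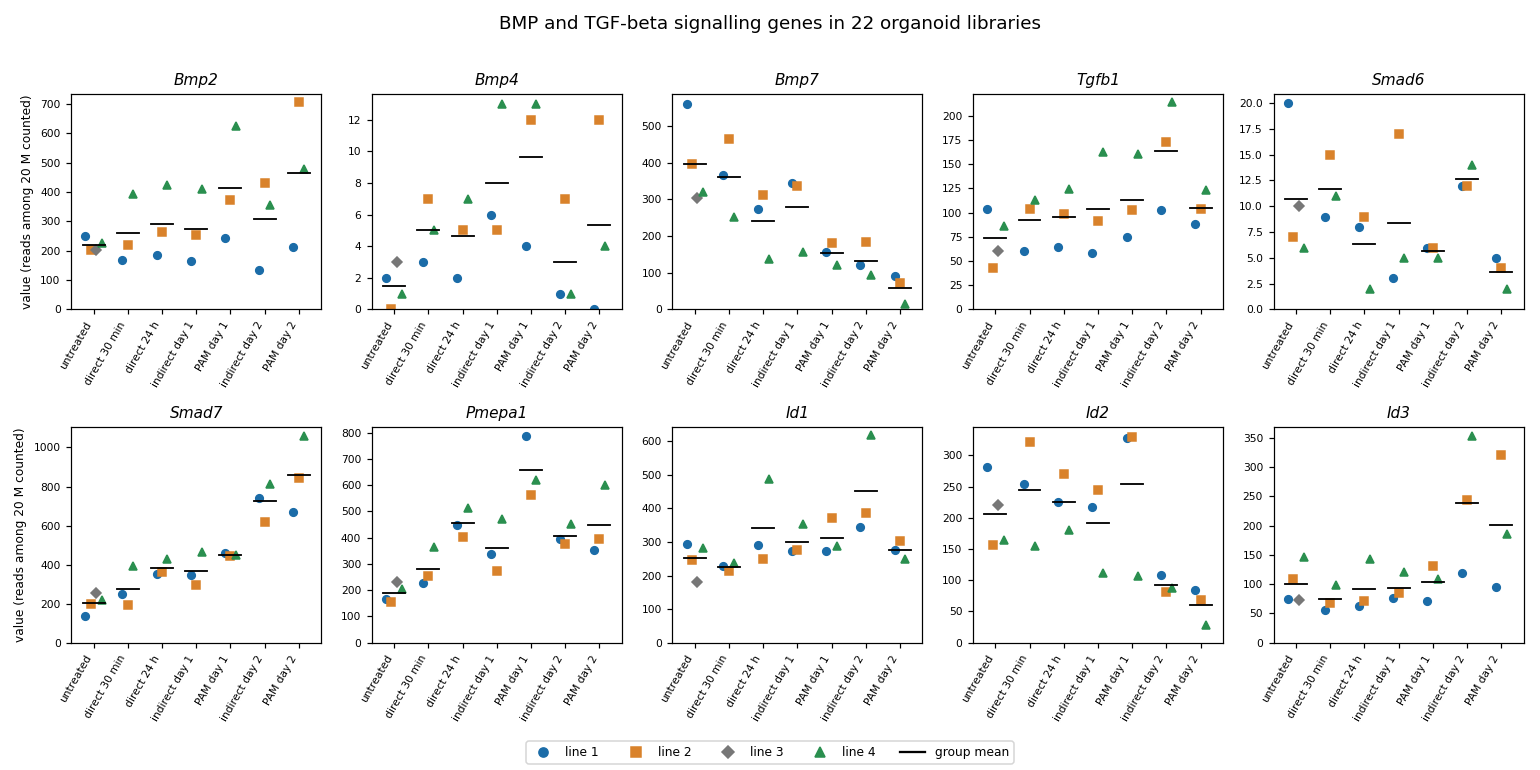
Values of the 10 genes (reads among 20 M counted, linear axis from 0) in each of the 22 libraries, by group, with 1 marker per organoid line and a black bar at the group mean. Smad7 means stand between 203 in untreated organoids and 857 with PAM from day 2, Bmp7 means between 396 and 59.7.

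Smad7 was 136, 200, 257 and 219 in untreated organoids and 247, 192 and 392 after direct CAP for 30 min. It was 350, 363 and 431 after direct CAP for 24 h, 347, 298 and 463 with indirect CAP from day 1 and 460, 445 and 447 with PAM from day 1. It was 742, 620 and 814 when indirect CAP began at day 2, and 669, 844 and 1058 when PAM did. The 5 groups with a 24 h exposure lay above all untreated libraries, and both day 2 groups also lay above all libraries of the other treated groups. Smad7 rose by 2.08 on the log2 scale (SE 0.24, limma adjusted p = 0.000523) with PAM from day 2, by 1.86 (SE 0.21, adjusted p = 0.000311) with indirect CAP from day 2 and by 1.18 (SE 0.20, adjusted p = 0.00232) with PAM from day 1. After direct CAP for 24 h and indirect CAP from day 1 the log2 fold changes were 0.94 and 0.87, with limma adjusted p of 0.0213 and 0.0332. The steps from day 1 to day 2 were also tested directly, without the organoid line as a block. They were 0.99 for indirect CAP (95% interval 0.55 to 1.42, limma adjusted p = 0.0403) and 0.90 for PAM (0.48 to 1.33, adjusted p = 0.0594). Neither passed the threshold in this unpaired test.

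Smad6, the inhibitory SMAD that acts mainly on BMP receptors, stayed at low values, between 2 and 20 in all 22 libraries. It was 20, 7, 10 and 6 in untreated organoids, 12, 12 and 14 with indirect CAP from day 2 and 5, 4 and 2 with PAM from day 2. It was below the filter on low values in 3 of the 6 comparisons with untreated organoids and was not past the threshold in the other 3, where log2 fold changes lay between -0.50 and 0.35. At this depth values this low carry a large counting error.

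Among the ligands Bmp7 fell. It was 561, 396, 305 and 321 in untreated organoids and 368, 465 and 252 after direct CAP for 30 min. Direct CAP for 24 h left it at 274, 313 and 138. Day 1 values were 346, 337 and 157 for indirect CAP and 156, 181 and 121 for PAM, and day 2 values were 122, 185 and 93 for indirect CAP and 92, 71 and 16 for PAM. Both PAM groups and indirect CAP from day 2 lay below every untreated library, and the other 3 groups overlapped the untreated ones. Its log2 fold change was -2.99 (SE 0.55, limma adjusted p = 0.00326) with PAM from day 2, -1.58 (SE 0.28, adjusted p = 0.00251) with indirect CAP from day 2 and -1.34 (SE 0.23, adjusted p = 0.00257) with PAM from day 1. Line 4 was the lowest of the 3 lines in 6 of 6 treated groups.

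Bmp2, the other BMP ligand of the list at a sizeable level, had values on either side of the untreated range. It was 249, 201, 203 and 226 in untreated organoids, 167, 220 and 395 after direct CAP for 30 min and 185, 263 and 423 after 24 h. It was 165, 252 and 409 with indirect CAP from day 1, 242, 374 and 625 with PAM from day 1, 133, 431 and 357 with indirect CAP from day 2, and 211, 706 and 480 with PAM from day 2. All 6 groups overlapped the untreated range, and line 1 was the lowest line in 6 of 6 treated groups. The log2 fold changes lay between 0.16 and 0.92 and none passed the threshold. Bmp2 did pass when a line 1 library was left out, at 1.14 with PAM from day 1 (limma adjusted p = 0.00522) and at 1.41 with PAM from day 2 (adjusted p = 0.00147).

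Bmp4 was 2, 0, 3 and 1 in untreated organoids and between 0 and 13 in treated ones, the highest being 13, in line 4 of both the indirect CAP and the PAM group from day 1. In the 9 libraries treated for 24 h from day 1 its mean was 7.44 ± 4.16 (SD, n = 9 libraries of lines 1, 2 and 4) against 1.5 ± 1.29 (n = 4). Against untreated, it passed the filter on low values in this comparison only, and only through treated libraries, so no call is drawn from its test there.

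Tgfb1, the TGF-beta ligand on the list, was 104, 43, 60 and 86 in untreated organoids and 103, 173 and 214 with indirect CAP from day 2, its highest group. In the other 5 treated groups it lay between 58 and 163. Every treated group overlapped the untreated one. The log2 fold change with indirect CAP from day 2 was 1.16 (SE 0.35, limma adjusted p = 0.0266), and the others lay between 0.36 and 0.62. Lines kept the same order in all 6 treated groups, with line 4 highest and line 1 lowest.

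The ID genes did not move together. Id2 was 282, 157, 220 and 165 in untreated organoids. In the 4 groups treated from day 1 it lay between 106 and 330. With a start at day 2 it was 109, 81 and 87 for indirect CAP and 85, 68 and 29 for PAM, below every untreated library and, apart from the 109 of line 1, below every library treated from day 1. Id2 fell in both, with log2 fold changes of -1.12 (SE 0.23, limma adjusted p = 0.00490) for indirect CAP and -1.84 (SE 0.38, adjusted p = 0.00542) for PAM. The direct test of day 2 against day 1 gave -0.98 (limma adjusted p = 0.129) for indirect CAP and -2.01 (adjusted p = 0.0861) for PAM. It was run without the organoid line as a block, though both days hold the same lines. Day 1 values of lines 1, 2 and 4 were 218, 245 and 112 for indirect CAP and 328, 330 and 106 for PAM. Each line was therefore lower from day 2 by either method.

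Id3 was 75, 109, 72 and 146 in untreated organoids and between 56 and 142 in the 4 groups treated from day 1. With a start at day 2 it was 119, 243 and 353 for indirect CAP and 95, 320 and 186 for PAM, with line 1 inside the untreated range in both groups and lines 2 and 4 above it. The log2 fold changes were 1.16 (SE 0.38, limma adjusted p = 0.0383) and 0.88 (SE 0.42, adjusted p = 0.116). With the organoid line as a block, indirect CAP from day 2 gave 1.03 with an adjusted p of 0.00915 against untreated and 1.23 with an adjusted p of 0.00144 against day 1. Without line 1 of that group it was 1.59 with a limma adjusted p of 0.00819. In the same blocked test of indirect CAP, day 2 against day 1, Bmp7 stood at -1.04 (limma adjusted p = 0.00154).

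Id1 was 294, 247, 180 and 283 in untreated organoids and 345, 387 and 620 with indirect CAP from day 2, all above the untreated libraries. With PAM from day 2 it was 277, 304 and 249, overlapping the untreated range. The log2 fold change with indirect CAP from day 2 was 0.82 (SE 0.24, limma adjusted p = 0.0232), and in the other 5 groups it lay between -0.12 and 0.41.

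**Figure D2:**
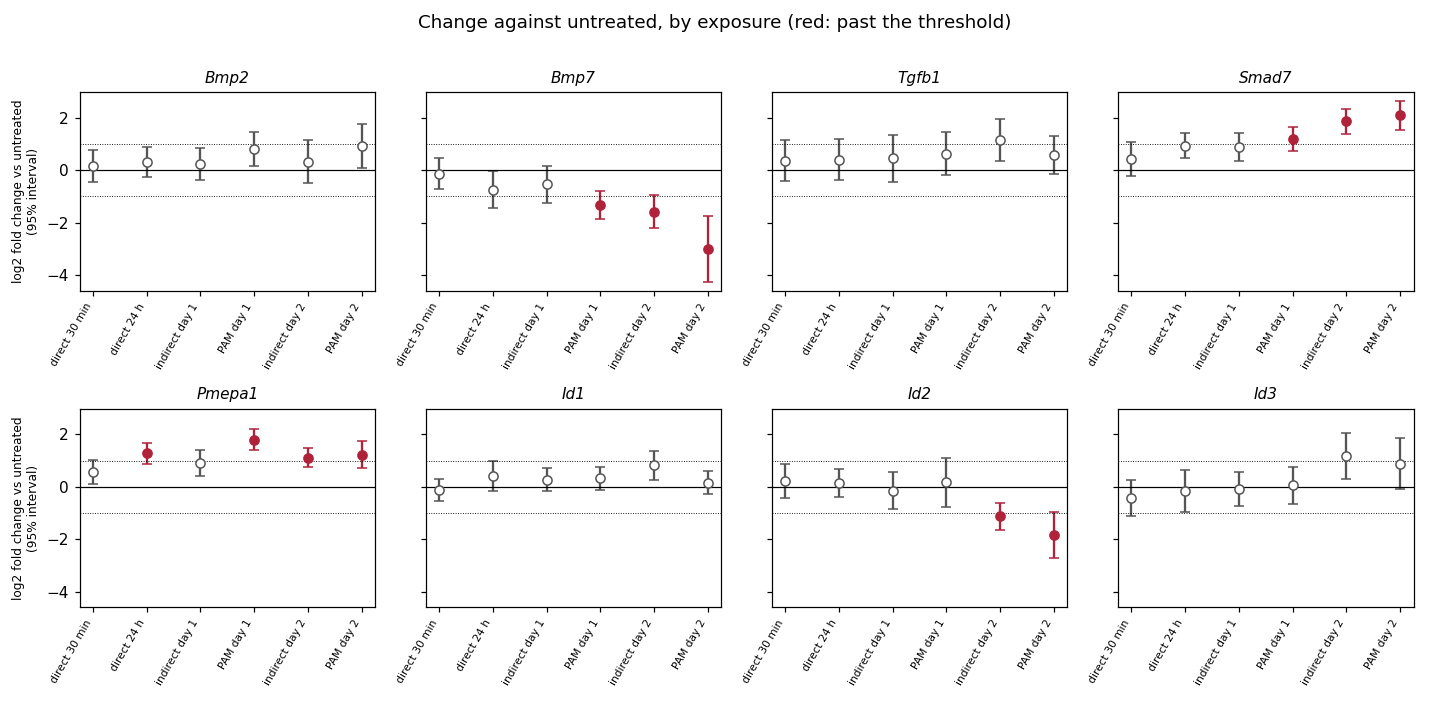
Log2 fold change against untreated with its 95% interval for 8 genes in the 6 exposures, filled red where past the threshold. The dotted lines mark a log2 fold change of 1 either way. Red points appear for Smad7 and Pmepa1 above 0 and for Bmp7 and Id2 below 0.

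Counted over the list, 1 of 10 genes (Pmepa1, log2 fold change 1.32, SE 0.23, limma adjusted p = 0.000982) passed in the 9 libraries treated for 24 h from day 1, where 6.34% of all genes tested did. Smad7 was just under the minimum fold there, at 0.998 with an adjusted p of 0.000688, and passed with the organoid line as a block (1.12, adjusted p = 0.000383), which brought the count to 3 with Bmp4 among them. It also passed without line 1 or 2 of direct CAP for 24 h, line 1 or 2 of indirect CAP, or untreated line 2, 3 or 4, at 1.003 to 1.12 on the log2 scale. After direct CAP for 30 min 1 of 9 tested members had an unadjusted p under 0.05 by limma, beside 4415 of 17731 genes. Past the threshold were 0 of 9, against 0.00564% of all genes. After 24 h it was 1 of 8, against 2.17%. Indirect CAP from day 1 gave 0 of 9 by limma, against 1.31%, and 1 with the block. At an unadjusted p under 0.05 were 2 of 9 there, beside 6869 of 17818 genes. PAM from day 1 gave 3 of 8 past the threshold, against 10.2%. From day 2 it was 4 of 9 with indirect CAP, against 11.9%, and 4 of 8 with PAM, against 17.3%. The median log2 fold change of the members tested was 0.82 in the first of these and 0.73 in the second, where that of all genes was -0.01 and -0.12.

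The members with no overlap between treated and untreated libraries were 2 of 10 in the 9 libraries treated from day 1 (17.7% of all genes), 0 of 9 after 30 min (23.6%), 2 of 8 after direct CAP for 24 h (30.7%), 2 of 9 with indirect CAP from day 1 (34.4%), 3 of 8 with PAM from day 1 (46.8%), 5 of 9 with indirect CAP from day 2 (48.5%) and 4 of 8 with PAM from day 2 (53.4%). None of these shares stood far above that of all genes.

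Between treated groups, limma without the block called 0 members in each of 5 comparisons. With the block it called Id3 and Bmp7 for indirect CAP, day 2 against day 1, where no untreated library is used, and with all 22 libraries in 1 fit it called Id2 for PAM, day 2 against day 1 (limma adjusted p = 0.00362). Direct CAP for 24 h against 30 min had 1 of 8 at an unadjusted p under 0.05 (Pmepa1, 0.71, limma adjusted p = 0.205). Over all genes 3774 of 17668 stood at that level and 0% passed the threshold. Indirect against direct CAP had 0 of 8 at that level, beside 1228 of 17672 genes. PAM against direct CAP had 1 (Pmepa1, 0.52, limma adjusted p = 0.430), beside 1773 of 17072 genes. In each of these 0% of all genes passed the threshold. Day 2 against day 1 had 4 of 9 at that level for indirect CAP, beside 3906 of 17987 genes, and 4 of 9 for PAM, beside 4651 of 17354 genes. Past the threshold were 0.0111% and 0% of all genes. Without the block, the interval of the Smad7 difference between indirect and direct CAP ran from -0.50 to 0.37 on the log2 scale. That of Bmp7 ran from -0.72 to 1.14. These intervals include the spread between lines, and that fit leaves room for differences between these application methods. Direct and indirect values of Bmp7 were 274 and 346 in line 1, 313 and 337 in line 2, and 138 and 157 in line 4. Those of Smad7 were 350 and 347, 363 and 298, and 431 and 463.

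Some calls depended on single libraries. Without PAM day 1 line 4, Bmp7 (limma adjusted p = 0.0119) and Smad7 (adjusted p = 0.0107) were no longer past the threshold in that group. Without untreated line 1, Bmp7, Id2 and Pmepa1 were lost with PAM from day 2 (limma adjusted p of 0.0114, 0.0171 and 0.0112), and the same 3 were lost without untreated line 2 (adjusted p of 0.0114, 0.0119 and 0.0111). Pmepa1 after direct CAP for 24 h was lost without line 1 or line 4 of that group and without untreated line 1, 2 or 4, with limma adjusted p between 0.0123 and 0.0196. With PAM from day 2, Id2 was also lost without line 2 of that group or untreated line 3 or 4 (limma adjusted p 0.0114 to 0.0159), and Pmepa1 without line 4 (log2 fold change 0.99). With indirect CAP from day 2, Bmp7 was lost without line 1 (limma adjusted p = 0.0106), and Id2 without line 2 or 4 or untreated line 3 (adjusted p of 0.0175, 0.0183 and 0.0134) or untreated line 1 (log2 fold change -0.96). With all 22 libraries in 1 fit, Bmp7 with PAM from day 1 (limma adjusted p = 0.0289) and Bmp7 and Id2 with indirect CAP from day 2 (adjusted p of 0.0124 and 0.0371) did not pass. With the untreated libraries of lines 1 and 2 left out together, the calls that held were Pmepa1 with PAM from day 1 and Smad7 with indirect CAP from day 2. No called change had its direction altered in these fits.

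The organoid lines kept an order in several genes. In the 6 treated groups line 1 was lowest in 6 of 6 for Bmp2, Tgfb1 and Id3, while line 4 was highest in 6 of 6 for Tgfb1 and in 5 of 6 for Smad7 and Pmepa1. For Bmp7 and Id2 the order was the opposite, with line 4 lowest in 6 of 6 and 5 of 6 groups. In untreated organoids line 1 was not the lowest of lines 1, 2 and 4 in Bmp2 or Tgfb1, where it was the highest of all 4 libraries. The library labelled line 2 was the lowest of the 4 in both genes. Since the labels of untreated lines 1 and 2 are in doubt, no change of order with treatment is drawn from this.

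**Figure D3:**
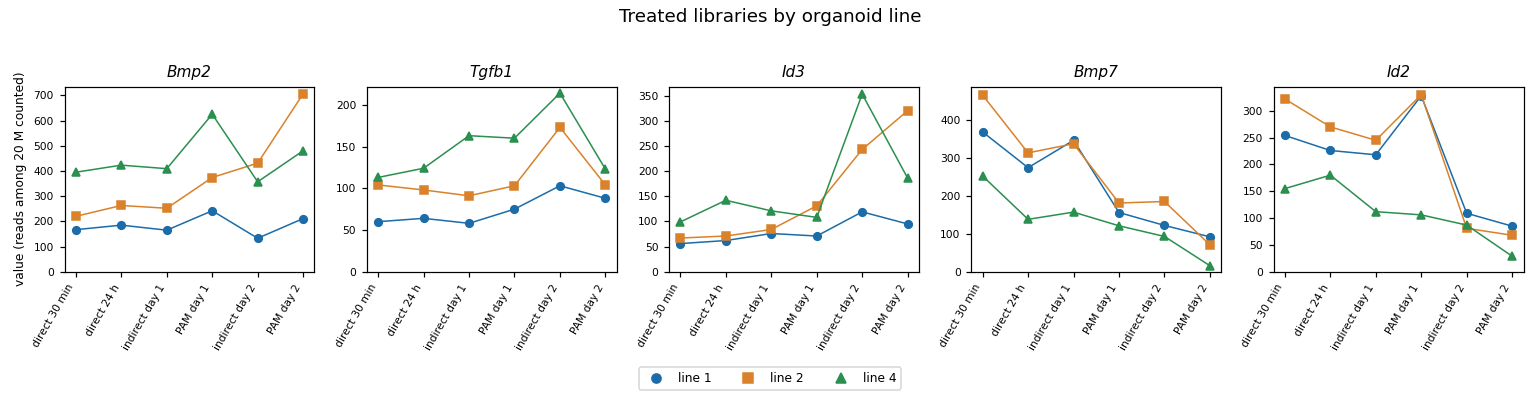
Values of Bmp2, Tgfb1, Id3, Bmp7 and Id2 (reads among 20 M counted) in the 18 treated libraries, with 1 line and marker per organoid line. The lowest points are those of line 1 in every group for Bmp2, Tgfb1 and Id3, and those of line 4 in every group for Bmp7.

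Across the 22 libraries, which share lines and treatments, Bmp7 and Smad7 ran opposite to each other (Pearson r of log2 values -0.893) and Bmp7 ran with Id2 (0.833). Smad7 and Pmepa1 correlated at 0.728, and Id2 and Id3 at -0.717. Of 19370 genes compared over the 22 libraries, those most like Bmp7 were Slc25a35 (0.986), Map3k21 (0.977) and 1700003D09Rik (0.972). Those most like Smad7 were Hs3st1 (0.987), Pard6b (0.980) and Prrg4 (0.976), and those most like Pmepa1 were Lmna (0.973), which encodes lamin A and C, Lpcat4 (0.964) and Lynx1 (0.963). Id2 was most like Cd81 (0.933), R74862 (0.925) and Slc7a4 (0.924), and Bmp2 most like Slc25a34 (0.901), Plin2 (0.898), a lipid droplet protein, and Bin1 (0.894). Tgfb1 was most like Unc93b1 (0.896), Abcc8 (0.855) and Nos2 (0.839), the inducible nitric oxide synthase. Id3 was most like Ldha (0.860), Cyp51 (0.850) and Gm28626 (0.846), and Id1 most like Ctsc (0.786), Cog6 (0.744) and Fam167a (0.736). The low genes Smad6 and Bmp4 were most like Gm16104 (0.832) and Entpd8 (0.781).

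Of 77 other genes of the pathways that the table holds, 58 were tested in the 9 libraries treated for 24 h from day 1, and 9 were higher and 2 lower past the threshold, where 6.34% of all genes passed. The 6 lists are other ligands (9 tested, 4 higher and 1 lower), receptors (12 tested, 2 higher and 1 lower), the other SMADs (5 tested, 0 past the threshold by limma, 2 at an unadjusted p under 0.05), antagonists and regulators (13 tested, 1 higher), latency and activation genes (8 tested, 0 by limma, 5 at an unadjusted p under 0.05) and other targets (11 tested, 2 higher). At an unadjusted p under 0.05 by limma stood 38 of the 58, beside 8154 of 18490 genes. The median log2 fold change of the 58 was 0.08, beside -0.05 over all genes. After direct CAP for 30 min 11 of 55 had an unadjusted p under 0.05 by limma, beside 4415 of 17731 genes. Past the threshold were 0 of 55, beside 0.00564% of all genes. It was 2 higher of 56 after direct CAP for 24 h (2.17% of all genes) and 2 higher of 55 with indirect CAP from day 1 (1.31%). PAM from day 1 had 6 higher and 4 lower of 56 (10.2%). With a start at day 2 it was 5 and 3 of 56 for indirect CAP (11.9%) and 6 and 4 of 56 for PAM (17.3%). None of Smad1, Smad2, Smad3, Smad4 and Smad5 passed in any of the 7 comparisons with untreated organoids. Smad9, at 9 or less in every library, was not tested. Smad5 and Smad4 were lower by less than the minimum fold. In the 9 libraries their log2 fold changes were -0.52 and -0.30 (limma adjusted p of 0.00325 and 0.00371). For PAM from day 1 they were -0.60 and -0.37 (adjusted p of 0.00255 and 0.00330). Smad5 was also lower in both day 2 groups, at -0.54 for indirect CAP (adjusted p = 0.00480) and -0.75 for PAM (adjusted p = 0.00290). In the remaining groups the adjusted p of Smad5 was 0.0264 or more.

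Among the other ligands Gdf15, a stress-induced member of the TGF-beta superfamily, rose in 5 of the 6 groups. Its mean was 439 in untreated organoids, 828 after direct CAP for 30 min, where it did not pass, and 4903 with PAM from day 2 (log2 fold change 3.40, SE 0.33, limma adjusted p = 0.000360). Bmp3, which antagonizes other BMPs, fell from a mean of 2009 to 709 with PAM from day 1 (log2 fold change -1.54). When treated from day 2 it fell to 410.0 by indirect CAP and 395 by PAM, at log2 fold changes of -2.37 and -2.55. Its means were 922 after direct CAP for 24 h and 1036 with indirect CAP from day 1, where it did not pass. In the 9 libraries treated from day 1 it passed at -1.23 (limma adjusted p = 0.00127). Bmp8b rose from 389 to 1562 with PAM from day 1 (log2 fold change 2.06), and Bmp8a from 49.5 to 154 (1.62). Both also passed in the 9 libraries treated from day 1, and neither passed in any other single group. Bmp8a and Bmp8b are close copies, and their reads could have been split or dropped in counting. Inhba, the activin A subunit, was at 3 or less in the untreated libraries and at 27 or less throughout. It is among the 4 ligands counted as higher but passed the filter on low values only through treated libraries, so nothing is drawn from its call.

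Of the receptors Tgfbr2, the type II TGF-beta receptor, rose from a mean of 2663 to 6589 with PAM from day 1 (log2 fold change 1.32, SE 0.16, limma adjusted p = 0.000615). It also passed in the 9 libraries treated from day 1 (1.02) but in no other single group. Tgfbr1, the type I TGF-beta receptor, fell from day 2, by -1.08 with indirect CAP (limma adjusted p = 0.000759) and -1.29 with PAM (adjusted p = 0.00136). In the 9 libraries Tgfbr1 stood at -0.74 (adjusted p = 0.000338), under the minimum fold. Tgfbr3, the co-receptor betaglycan, was 5, 5, 5 and 11 in untreated lines 1 to 4 and 36, 34 and 45 with PAM from day 2, where its log2 fold change was 2.45 (SE 0.34, adjusted p = 0.00105). It passed the filter on low values mainly through treated libraries, with 1 untreated library at 10 or more. Acvr1c, the type I receptor ALK7, fell from 74.0 to 16.7 with PAM from day 1, and its means were 14.7 and 7.0 for indirect CAP and PAM from day 2. In the last group the log2 fold change was -3.27 (SE 0.32, adjusted p = 0.000360). Nbl1, an antagonist that binds BMPs, rose from a mean of 100 to 920.0 with PAM from day 1 (3.31, SE 0.57, limma adjusted p = 0.00249). Nbl1 also passed in the 9 libraries treated from day 1 (2.37, adjusted p = 0.00865) but in no other single group. Cdkn1a, a cell cycle inhibitor that TGF-beta and p53 both induce, rose in 5 of 6 groups, by 1.80 on the log2 scale with PAM from day 2. Ctgf, a matrix protein induced by TGF-beta and by YAP, rose in the 9 libraries treated from day 1 by 2.30 (SE 0.57, adjusted p = 0.00725), whereas it stood at -0.86 and -0.82 on the log2 scale in the day 2 groups (indirect CAP, then PAM) and did not pass.

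**Figure D4:**
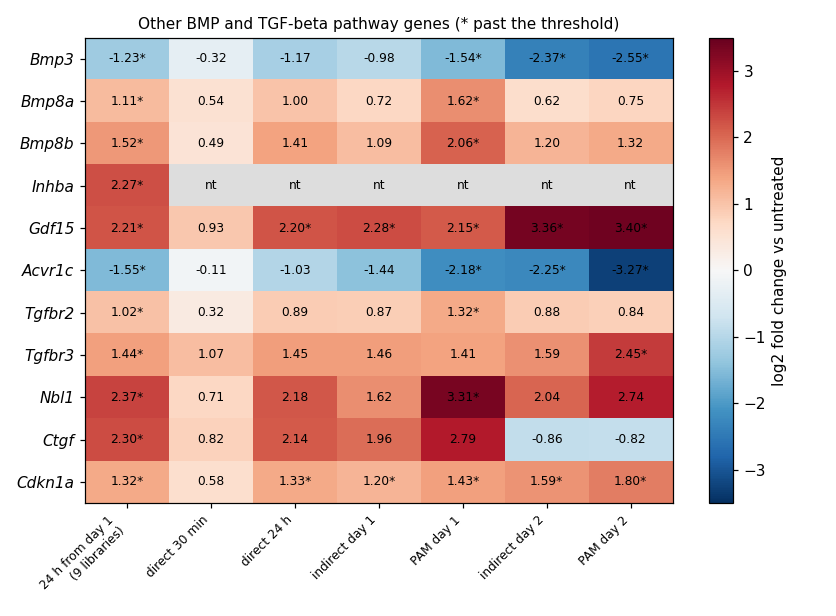
Log2 fold change against untreated of 11 other pathway genes in the 9 libraries treated for 24 h from day 1 and in the 6 groups, red above 0 and blue below, with a star where past the threshold and nt where not tested. Inhba was tested only through its treated libraries. Gdf15 is red in every column and Ctgf is blue in the 2 day 2 columns only.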

How the data were processed

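RNA-seq of 22 libraries was analysed. Per the labels and the study's methods, the authors trimmed reads with Trimmomatic 0.36, aligned them to GRCm38 with STAR 2.5.3a, counted them per Ensembl gene with HTSeq 0.9.1 and tested them with edgeR. The deposited values are a score per gene and library that the study calls CP20M: counts scaled to 20 M per library and rounded up. Libraries sum to between 20007540 and 20016513. The paper's definition divides by gene length, which these values are not, and the raw counts were not used here, so no count test was run.

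Depth was estimated from the spacing of low values (19.4 to 28.7 M reads, largest error 4.14% in 6 simulated libraries, at the shallowest). A value of 10 stands for about 10 reads, so intervals are wide at low values. Positions and exon lengths came from GENCODE vM21, which matched 99.6% of the 52636 identifiers. Promoters came from RefSeq (GRCm38.p6), which matched 5 of 10 genes.

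limma 3.58.1 (lmFit and eBayes with trend, R 4.3.3) was run on log2(value + 1) of the libraries compared, for genes that reached 10 in 3 or more of them. Fold changes are on that scale and understate changes of low genes. Figures used Python 3.11.15, pandas 2.3.3 and matplotlib 3.10.9. On simulated data all 200 changed genes were found in each of 3 designs, with 1, 2 and 1 false calls. How many changes are missed or falsely called in the real libraries, where organoid lines differ, was not tested. The 24 replicate pairs held no copy.

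Libraries with the same line number come from the same mouse. After removing group means, treated libraries of the same line correlated at a median of 0.564 (45 pairs) and of different lines at -0.330 (90 pairs). Untreated line 1 correlated with treated line 1 at 0.0751 and with line 2 at 0.541, and untreated line 2 at 0.132 with its own line and 0.353 with line 1, so the pairing of these 2 libraries is in doubt. The members, gene lists and tests were chosen with earlier results of these data known. Members were named in full, other pathway genes where past the threshold in the 9 libraries treated for 24 h from day 1 or in 3 of the 6 groups, and the 3 genes most correlated with each member (1 each for Smad6 and Bmp4). Genes of other lists are given by counts. Tgfbr1 and the other SMADs were named outside this rule.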

Additional observations from a re-analysis of the deposited data

How the results depend on the processing

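The number of members past the threshold was recomputed under each alternative. Against untreated, in the 9 libraries treated for 24 h from day 1, it was 1, and 2 with quantile normalization, 3 with the replicate block (organoid line, Bmp4 included), 4 when the threshold was loosened (adjusted p under 0.05, any fold), and 1 to 3 when 1 library was left out. For direct CAP for 24 h it was 1, and 2 at the looser threshold and 0 to 1 with 1 library left out. For indirect CAP from day 1 it was 0, and 1 with the replicate block, 2 at the looser threshold and 0 with any 1 library left out. For PAM from day 1 it was 3, and 3 with the replicate block, 4 at the looser threshold, 2 with all 22 libraries in 1 fit and 1 to 4 with 1 library left out. For PAM from day 2 it was 4, also under these 3 settings, and 1 to 5 with 1 library left out. For indirect CAP from day 2 it was 4, and 5 with the replicate block, 2 with all 22 libraries in 1 fit, 7 at the looser threshold and 3 to 4 with 1 library left out. Between treated groups it was 0. For indirect CAP, day 2 against day 1, it was 2 with the replicate block and 1 at the looser threshold, and for PAM, day 2 against day 1, it was 1 with all 22 libraries in 1 fit (Id2, limma adjusted p = 0.00362).

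Chosen after seeing the data, leaving out the untreated libraries of lines 1 and 2, whose pairing is in doubt, gave 0 for the 9 libraries, 0 for direct CAP for 24 h, 1 for PAM from day 1, 1 for indirect CAP from day 2 and 0 for PAM from day 2. In that last comparison 1 of 17146 genes then passed by limma, with 2 untreated libraries left. The cause of these changes was not tested, except that fewer libraries were fitted.

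Of 188 refits of the 13 called member changes, 36 were no longer past the threshold and 0 changed direction. The uncalled log2 fold changes of Id2 and Id3 in the 9 libraries changed sign with single libraries left out, from -0.056 to 0.22 for Id2 and from -0.20 to 0.14 for Id3. Quantile normalization moved the median of all genes with PAM from day 2 from -0.12 to 0.00.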
